A study of Rattus norvegicus with 6 samples.

Results

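The genes described here encode the integrin adhesion of the podocyte, the epithelial cell that covers the glomerular capillary with its foot processes. They were chosen by name as ITGA3, ITGB1, ITGAV, ITGB5, ILK, TLN1, VCL, PXN and CD151, and every rat gene ID that carries one of these human symbols in the authors' tables was kept. Of the 9 symbols, 8 were found, on 9 gene IDs among the 26319 genes of the count table, because CD151 stands on 2 IDs. ITGB5 has no ID in these tables and was not analysed here. Polyadenylated RNA of isolated glomeruli from Sprague Dawley rats was sequenced from 6 libraries, 2 per group. The first group was labelled AT1R Tg with the treatment AC1903 (ages 23.0 and 20.4 weeks), the second AT1R Tg with vehicle (20.4 and 17.4 weeks), and the third wild type (WT), which also received vehicle (20.4 and 21.9 weeks). AC1903 is a small-molecule blocker of the cation channel TRPC5, and AT1R Tg rats carry a transgene for the angiotensin II type 1 receptor that a podocyte promoter drives. The labels do not say whether a library is 1 rat or a pool, so the p-values measure the spread between these libraries.

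Integrins are heterodimers of an alpha and a beta chain that bind matrix outside the cell and, through adaptor proteins, actin inside it. In podocytes the alpha3 beta1 dimer, held by the tetraspanin CD151, anchors the foot process to laminin of the glomerular basement membrane. Alpha V subunits bind vitronectin, fibronectin and latent TGF-beta. Talin activates integrins, vinculin strengthens the talin to actin link, paxillin is a scaffold for signalling proteins, and integrin-linked kinase (ILK) is a pseudokinase that joins beta chains to parvins and PINCH.

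The libraries held 12325515 to 36026772 expected counts in all, and the 2 WT libraries were the deepest. Every member had between 547 and 60068.18 expected counts in each library, and all 9 IDs passed the filter on low counts. Levels are counts-per-million units (CPM) of libraries scaled by TMM, the trimmed mean of M values. The 18 podocyte markers, nephrin and podocin among them, were detected in every library. Their summed level was 11620 and 15140 CPM in AC1903 libraries, 19430 and 10320 CPM in vehicle libraries, and 17640 and 15290 CPM in WT libraries. The 2 rat genes under the symbol AGTR1 had 56.1 to 70.6 CPM in AC1903 libraries, 87.8 to 99.3 CPM in vehicle libraries and 85.3 to 151 CPM in WT libraries. They were therefore not higher in the libraries labelled AT1R Tg, and the labels do not say whether the transgene's sequence would be counted under these IDs.

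No member passed the test in any of the 3 comparisons. The fitted ratios between groups lay between 0.714 (CD151 ENSRNOG00000019215, AC1903 over WT) and 1.45 (ITGAV, AC1903 over WT). Over all 13426 genes tested, edgeR's quasi-likelihood test with Benjamini-Hochberg adjustment called 0.0745% of genes for AT1R Tg vehicle against WT, 0% for AC1903 against vehicle and 0.0372% for AC1903 against WT. At an unadjusted p under 0.05 the same test had 1601, 1090 and 1493 genes in these comparisons. DESeq2 called 4.17%, 0.499% and 1.35% of genes in the same order, and no member. The authors' deposited table for AT1R Tg vehicle against WT holds an adjusted p under 0.05 for 4.42% of its 12321 genes, and the one for AC1903 against vehicle for 0.378% of 12182 genes. The members' adjusted p in the authors' deposited table lay between 0.757 and 0.981 in the first comparison and between 0.847 and 0.997 in the second. With 2 libraries against 2 no permutation test can give a p under 0.33.

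**Figure D1:**
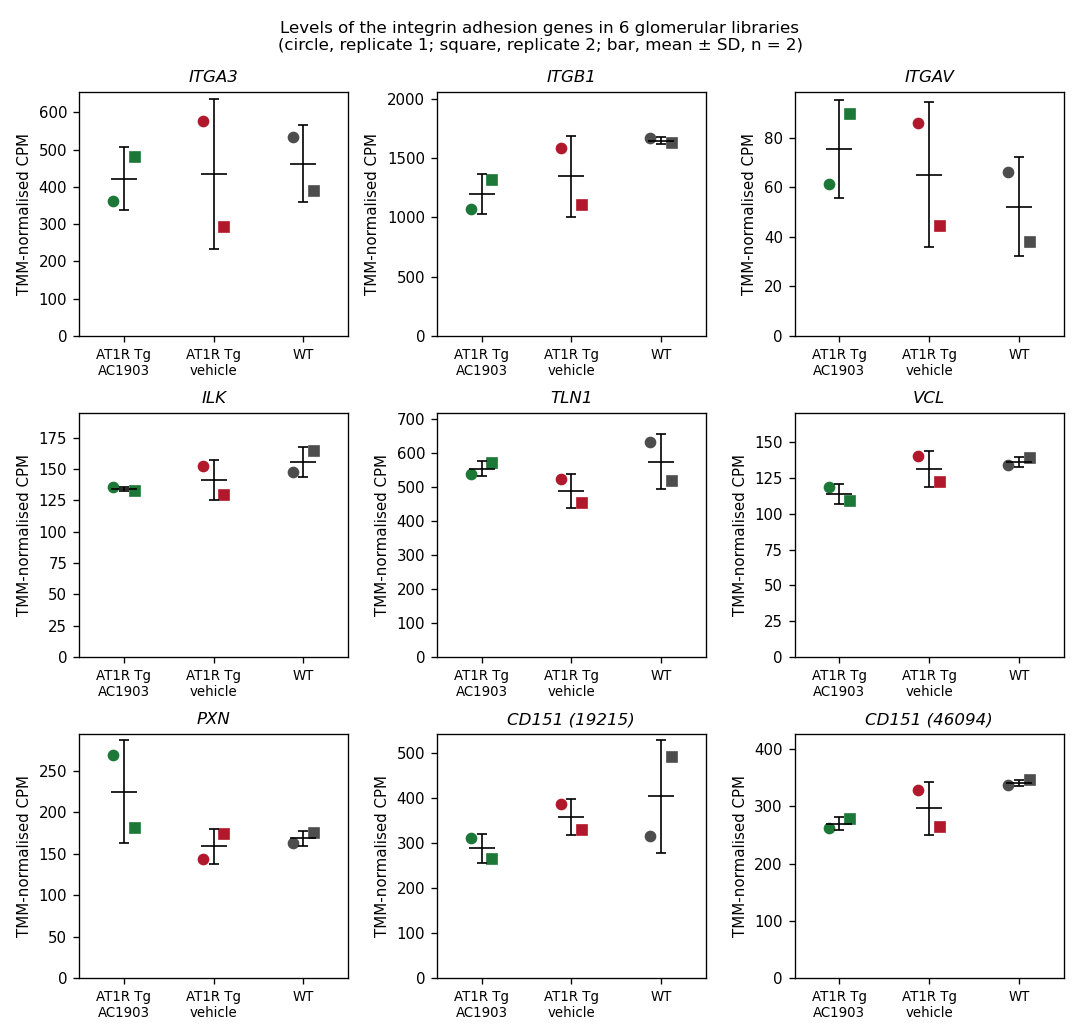
TMM-normalised CPM (y axis, from 0) of each member in AT1R Tg AC1903, AT1R Tg vehicle and WT glomeruli (x axis). Points are libraries and bars the mean ± SD (n = 2). ITGA3 runs from 293 to 576 CPM, with both extremes in the vehicle group, while ILK stays between 129.7 and 164 CPM.

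ITGA3 encodes the alpha3 chain of the laminin receptor. It had 362 and 481 CPM in AC1903 libraries, 576 and 293 CPM in vehicle libraries, and 535 and 389 CPM in WT libraries. The highest and the lowest library of all belonged to the same group, vehicle, and all groups overlapped. The share of mitochondrially encoded RNA was 34.0% and 32.0% in AC1903 libraries, 25.3% and 40.5% in vehicle libraries, and 22.3% and 28.3% in WT libraries. The second vehicle library, the lowest in ITGA3, was thus the highest in that share, whose part in the level was not tested. The means were 421 ± 84.1 CPM with AC1903, 435 ± 200.1 CPM with vehicle and 462 ± 103 CPM in WT (SD, n = 2 each). The log2 change was -0.087 for vehicle over WT (SE 0.32, edgeR adjusted p = 0.949) and -0.045 for AC1903 over vehicle (adjusted p = 0.975). The 95% interval of the vehicle over WT ratio ran from 0.564 to 1.57, so a change in either direction within those bounds was not excluded. RNA came from whole glomeruli, so fewer cells of a type and less RNA per cell cannot be told apart.

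ITGB1 encodes the beta1 chain, the partner of alpha3 and of many other alpha chains. It had 1075 and 1314 CPM in AC1903 libraries, 1589 and 1105 CPM in vehicle libraries, and 1668 and 1628 CPM in WT libraries. Both WT libraries were above all 4 AT1R Tg libraries, and the AC1903 and vehicle groups overlapped. The mean was 1195 ± 169 CPM with AC1903, 1347 ± 342 CPM with vehicle and 1648 ± 28.2 CPM in WT. AC1903 over WT had a log2 change of -0.46 (95% interval -1.03 to 0.098, adjusted p = 0.504), and vehicle over WT one of -0.29 (adjusted p = 0.709). These values did not pass the test, and without one of the libraries or with another model the vehicle over WT value lay between -0.58 and 0.045.

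ITGAV encodes the alpha V chain, whose usual podocyte partners are the beta3 and beta5 chains. It had 61.4 and 89.6 CPM in AC1903 libraries, 85.8 and 44.5 CPM in vehicle libraries, and 66.3 and 38.1 CPM in WT libraries. The order of the means was AC1903 (75.5 ± 20.0 CPM), vehicle (65.2 ± 29.2 CPM) and WT (52.2 ± 19.9 CPM), but each group overlapped the next and no neighbours in that order differed beyond their spread. It had the largest positive log2 change of the members in AC1903 over WT, 0.53 (95% interval -0.28 to 1.35, adjusted p = 0.603). ITGAV was also among the most variable members within groups: its libraries differed by 0.54 (log2) with AC1903, 0.95 with vehicle and 0.80 in WT, while the median over all genes was 0.26, 0.32 and 0.24.

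CD151 encodes the tetraspanin that binds alpha3 beta1. RSEM gave non-whole counts to both of its IDs, ENSRNOG00000019215 and ENSRNOG00000046094, in all 6 libraries, and the sum of the 2 was a whole number each time (tolerance 0.01). The IDs therefore share reads, and the value of each alone is uncertain. Summed, CD151 had 572 and 543 CPM in AC1903 libraries, 715 and 593 CPM in vehicle libraries, and 652 and 837 CPM in WT libraries. Both AC1903 libraries were below the other 4, and the vehicle and WT groups overlapped. The log2 change of the sum was -0.42 for AC1903 over WT (95% interval -0.89 to 0.055, adjusted p = 0.477) and -0.23 for AC1903 over vehicle (adjusted p = 0.759). The sum was chosen after the data were seen. Taken separately, ENSRNOG00000019215 had a log2 change of -0.49 and ENSRNOG00000046094 one of -0.34 in AC1903 over WT (adjusted p = 0.469 and 0.497). The first ID took 48.4% to 58.8% of the summed reads, with both extremes in WT.

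ILK, the scaffold of the ILK, PINCH and parvin complex, had the smallest SD of the members over the 6 libraries, 0.13 on the log2 scale. It had 136 and 133 CPM in AC1903 libraries, 153 and 129.7 CPM in vehicle libraries, and 147 and 164 CPM in WT libraries. Only the AC1903 and WT groups did not overlap, with a log2 change of -0.22 (95% interval -0.58 to 0.15, adjusted p = 0.638). The interval for vehicle over WT spanned ratios from 0.703 to 1.17, and that for AC1903 over vehicle from 0.738 to 1.22.

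TLN1 encodes talin, which activates integrins from inside the cell. It had 538 and 569 CPM in AC1903 libraries, 523 and 453 CPM in vehicle libraries, and 630.2 and 516 CPM in WT libraries. AC1903 libraries were above vehicle libraries and inside the WT range. The log2 change was 0.18 for AC1903 over vehicle (adjusted p = 0.80) and -0.23 for vehicle over WT (adjusted p = 0.701).

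VCL encodes vinculin, the actin linker that talin recruits under tension. It had 119 and 109 CPM in AC1903 libraries, 139.9 and 122 CPM in vehicle libraries, and 134 and 139 CPM in WT libraries. Both AC1903 libraries were the lowest of the 6. The log2 change was -0.20 for AC1903 over vehicle (95% interval -0.56 to 0.15, adjusted p = 0.716) and -0.26 for AC1903 over WT (adjusted p = 0.551).

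PXN encodes paxillin. It had 268 and 181 CPM in AC1903 libraries, 144 and 174 CPM in vehicle libraries, and 162 and 175 CPM in WT libraries. AC1903 libraries were the highest of the 6, though the second stood only just above the second WT library. PXN was the 1 member with an unadjusted edgeR p under 0.05, in AC1903 over vehicle: the log2 change was 0.50 (SE 0.21, 95% interval 0.0093 to 0.99), and the p over all genes tested adjusted to 0.612. In the same comparison 8.12% of all genes had an unadjusted p under 0.05. The log2 change over WT was 0.41 (adjusted p = 0.495).

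**Figure D2:**
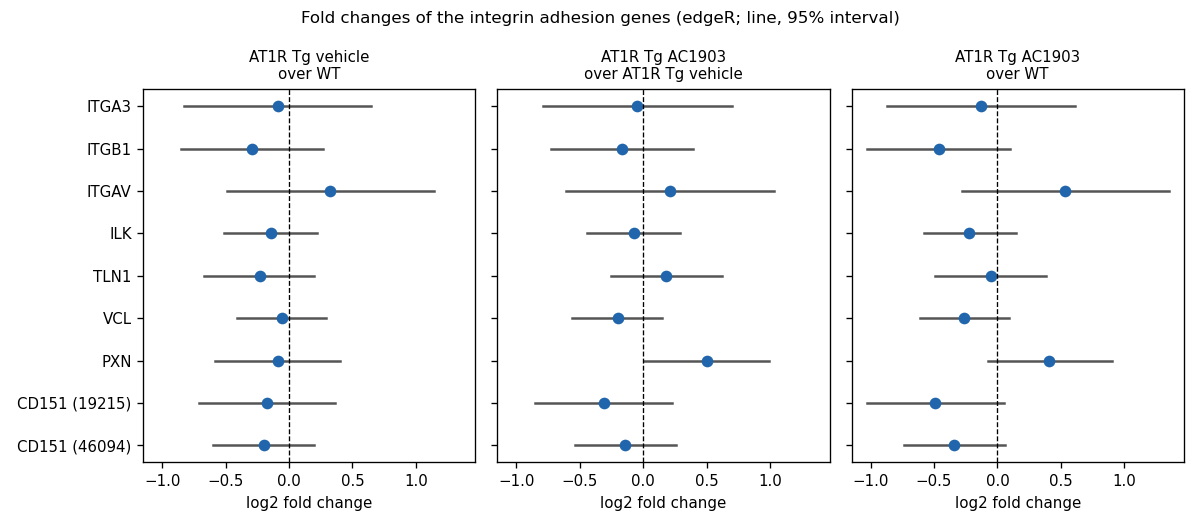
The log2 fold change of each member (x axis) for AT1R Tg vehicle over WT, AT1R Tg AC1903 over AT1R Tg vehicle, and AT1R Tg AC1903 over WT. Points are edgeR estimates and lines their 95% intervals. The interval of PXN in AC1903 over vehicle (0.0093 to 0.99) is the 1 interval that leaves out 0.

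Counted by direction, 1 member had a positive and 8 a negative log2 change in vehicle over WT, with a median of -0.14, against -0.029 over all genes. With an age covariate 5 of the 9 were positive, and with a proximal tubule level covariate 7 were. In AC1903 over vehicle 3 were positive and 6 negative, with a median of -0.073 (-0.019 over all genes), and without the first vehicle library 7 were positive and 2 negative. In AC1903 over WT 2 were positive and 7 negative, with a median of -0.22 (0.0019 over all genes), and with the proximal tubule level covariate 5 were positive and 4 negative. These comparisons share libraries, so their directions are not independent.

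Non-overlap of the libraries is common in groups of this size. In vehicle against WT no member was higher without overlap (20.6% of all genes were) and 2 were lower, ITGB1 and CD151 ENSRNOG00000046094 (23.4% of all genes). In AC1903 against vehicle TLN1 and PXN were higher (19.9% of all genes) and VCL and CD151 ENSRNOG00000019215 were lower (18.4%). In AC1903 against WT PXN was higher (24.2% of all genes), and ITGB1, ILK, VCL and both CD151 IDs were lower (23.5%). The 5 of 9 in that last direction are a larger share than the background, but 2 of the 5 share reads. Others had close profiles over the 6 libraries: the root mean square log2 difference was 0.07 between ILK and VCL and 0.1 between ITGB1 and CD151 ENSRNOG00000046094. Because 2 of them share reads, the 5 cannot be taken as separate counts. The closeness includes the AC1903 and WT difference counted here, so it cannot decide whether the others are separate. The members were also chosen with earlier results of these data known.

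The level of ITGA3 moved from library to library with the podocyte markers. In log2 CPM from its own mean it stood at -0.24 and 0.17 in AC1903 libraries, 0.43 and -0.54 in vehicle libraries, and 0.32 and -0.14 in WT libraries. The mean of the podocyte markers stood at -0.18 and 0.12 in AC1903 libraries, 0.33 and -0.50 in vehicle libraries, and 0.26 and -0.018 in WT libraries. The SD of ITGA3 over the 6 libraries was 0.37, and 0.085 once the podocyte marker mean of the same library was subtracted. The range shrank to 0.22, where that of the plain level was 0.97. The root mean square difference between the ITGA3 profile and the marker profile was 0.077, and only 14 of the 13426 genes tested (0.104%), ITGA3 and podocyte markers included, were as close or closer. Of the 18 markers themselves, 17 were farther from the mean of the other markers than ITGA3 was from the mean of all.

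**Figure D3:**
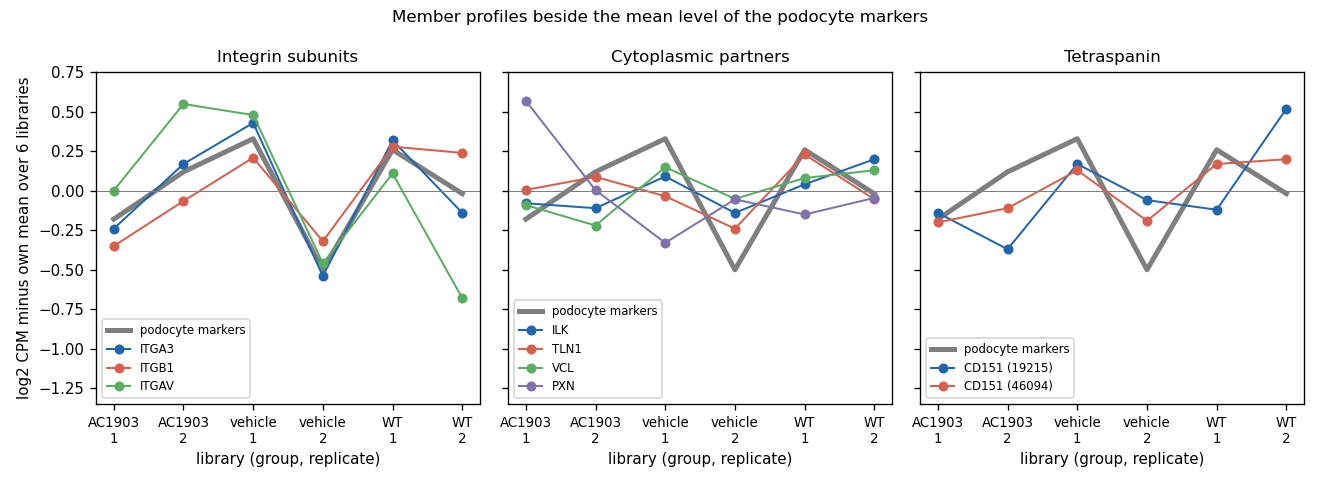
The log2 CPM of each member minus its own mean over the 6 libraries (y axis), by library (x axis), with the mean of the podocyte markers as the thick grey line. ITGA3 runs along the grey line from 0.43 in the first vehicle library to -0.54 in the second, while PXN stands at 0.57 in the first AC1903 library, where the markers are at -0.18.

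The other members were less tied to the podocyte level. Subtracting the marker mean narrowed the SD of ITGB1 to 0.19, where its plain level had 0.29, and that of ITGAV to 0.38, where its plain level had 0.50. It widened the SD of the other 6 IDs, of PXN most, to 0.53 where the plain level had 0.30. By the same measure of likeness, 344 genes (2.56%) were as close to the podocyte markers as ITGB1, and 8976 genes (66.9%) as close as PXN. ITGB1 lay nearest the mean of the mesangial and vascular smooth muscle markers (0.14) and next to the podocyte markers (0.17). CD151 ENSRNOG00000046094 also lay nearest the mesangial and vascular smooth muscle markers (0.15). ITGAV was as near the podocyte markers as the loop, distal tubule and collecting duct markers (0.34 each). ILK (0.16), TLN1 (0.17), VCL (0.18), PXN (0.23) and CD151 ENSRNOG00000019215 (0.28) each lay nearest the glomerular endothelial markers. This measure also places genes that vary little near lists that vary little, so nearness need not be a shared course. The endothelial mean stayed between -0.17 and 0.18, and the SDs of ILK, TLN1 and VCL were 0.13, 0.16 and 0.14. In the first AC1903 library ILK stood at -0.079, where the endothelial mean was at 0.18. All these values are descriptions over 6 libraries that share their scaling, and whether another cell type's share moves a member was not tested.

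Relative to the podocyte markers, the order of ITGAV was AC1903, vehicle and WT with no overlap between neighbours. Its relative log2 level was 0.19 and 0.43 in AC1903 libraries, 0.16 and 0.044 in vehicle libraries, and -0.15 and -0.67 in WT libraries. The gap between AC1903 and vehicle was narrow, 0.19 against 0.16 in the nearest libraries. The difference was 0.51 for vehicle minus WT, where 18.6% of all genes were higher without overlap on this scale and 3.56% lower. It was 0.21 for AC1903 minus vehicle (7.66% of all genes higher, 8.01% lower) and 0.71 for AC1903 minus WT (31.4% higher, 6.23% lower). With the podocyte level as a covariate in edgeR, ITGAV had a log2 change of 0.76 for AC1903 over WT and 0.57 for vehicle over WT, with adjusted p = 0.235 and 0.267, so neither passed. ITGB1 was lower on the same scale, with relative values of -0.17 and -0.19 in AC1903 libraries, -0.12 and 0.19 in vehicle libraries, and 0.022 and 0.26 in WT libraries. AC1903 libraries were thus below both other groups without overlap, by 0.21 below vehicle and 0.32 below WT. No other member's groups separated on this scale. The proximal tubule markers were higher in both AT1R Tg groups than in WT, and their part in the ITGAV levels cannot be told apart from that of group. Their summed level was 6658 and 6659 CPM in AC1903 libraries, 6426 and 12350 CPM in vehicle libraries, and 4496 and 2777 CPM in WT libraries, with all 17 genes detected in each, and 0 of the 17 had a positive log2 change in AC1903 over vehicle (median -0.4). With the mean log2 level of these markers entered in the model, ITGAV had a log2 change of 0.53 for AC1903 over WT and 0.31 for vehicle over WT. Neither passed, nor did any other member. That level was itself lower in both WT libraries (-0.32 and -1.02 from its mean) than in the AT1R Tg libraries (0.062 to 0.88). The fit therefore cannot tell tubule level and group apart.

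Ratios within a library need no scaling between libraries. The expected counts of ITGA3 per count of ITGB1 were 0.337 and 0.366 in AC1903 libraries, 0.363 and 0.265 in vehicle libraries, and 0.32 and 0.239 in WT libraries. The ratio of ITGAV to ITGB1 was 0.0571 and 0.0682 in AC1903 libraries, 0.054 and 0.0403 in vehicle libraries, and 0.0397 and 0.0234 in WT libraries. The 3 groups did not overlap in this ratio, and 5.09% of all other genes separated in the same order when set per ITGB1. ITGA3 counts per ITGAV count were 5.90 and 5.37 in AC1903 libraries, 6.71 and 6.58 in vehicle libraries, and 8.06 and 10.2 in WT libraries, also without overlap, and 0.67% of all other genes separated in that order against ITGA3. Both ratios reuse the ITGAV values above, and ITGA3 itself lay close to the podocyte marker mean, so they are not separate evidence. These ratios are not corrected for transcript length, so they compare libraries and not the amounts of the chains. The ratio of ITGAV to ITGB5 could not be formed.

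The genes most like each member were those with the smallest root mean square difference between profiles over the 6 libraries. For ITGA3 they were PLCE1 (0.034), a phospholipase whose loss causes nephrotic syndrome, UGCG (0.053), which makes glucosylceramide, and the podocyte marker SYNPO (0.055), synaptopodin of the foot process. For ITGAV they included CREB3L2 (0.062) and COL4A3 ENSRNOG00000015365 (0.095), which encodes a collagen IV chain of the glomerular basement membrane. The other COL4A3 ID, ENSRNOG00000046521, was farther from ITGAV (0.23), and RSEM gave both non-whole counts in all 6 libraries. For ITGB1 they were ARHGEF16, SUMF1 and BCL2L2, for ILK SCAP, PLOD3 and RHOB, for TLN1 TPR, ATG14 and SMCHD1, for VCL SEC22B, TLK2 and PPP2R2A, and for PXN MASP2, ZFP36L1 and FAM53B. CD151 ENSRNOG00000019215 was closest to RPL30, RPS15 and RPS3, which encode cytosolic ribosomal proteins, and ENSRNOG00000046094 to OSTF1, AHCYL1 and FAM20B. Among the members the closest pair was ILK and VCL, with a difference of 0.07. ITGA3 and ITGB1, the chains of 1 dimer, differed by 0.23, and 3.99% of genes with a symbol were closer to ITGA3 than ITGB1 was.

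The wider adhesion machinery was followed in 6 further lists with 119 tested genes: other integrin subunits, kindlins with PINCH and parvins, adaptors and actin linkers, kinases with their partners, tetraspanins with other lateral partners, and matrix ligands. None of the 119 passed edgeR's test in any comparison, and 20, 15 and 25 had an unadjusted p under 0.05 in vehicle over WT, AC1903 over vehicle and AC1903 over WT. That is 16.8%, 12.6% and 21.0% of them, where 11.9%, 8.12% and 11.1% of all genes had such a p. DESeq2 called 6 higher and 2 lower in vehicle against WT, 2 higher in AC1903 against vehicle, and 3 higher and 2 lower in AC1903 against WT. That is 6.72%, 1.68% and 4.2% of the lists, beside 4.17%, 0.499% and 1.35% of all genes. The lists were chosen with earlier results of these data known, so their shares above those of all genes are not independent support. The genes called by DESeq2 are given next as values, since the edgeR test did not call them. FERMT3, which neither method called, is given with them.

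**Figure D4:**
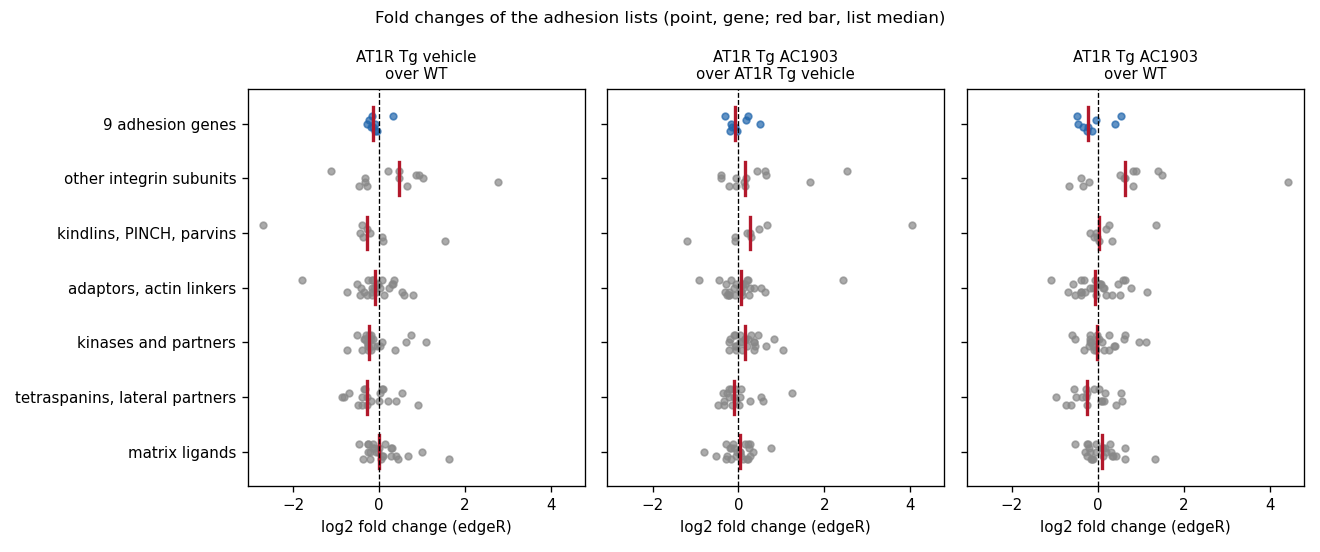
The edgeR log2 fold change (x axis) of each tested gene (points) of the 9 members and 6 further adhesion lists (y axis), with the list median as a red bar, in 3 comparisons. The medians of the other integrin subunits stand at 0.45, 0.15 and 0.64, and those of the members at -0.14, -0.073 and -0.22.

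Among the other integrin subunits, 13 genes were tested, and their median log2 change was 0.45 in vehicle over WT, 0.15 in AC1903 over vehicle and 0.64 in AC1903 over WT. ITGB3, the beta3 chain that pairs with alpha V, had 12.7 and 11.5 CPM in AC1903 libraries, 8.07 and 7.49 CPM in vehicle libraries, and 4.67 and 3.90 CPM in WT libraries. The 3 groups did not overlap. Without overlap, 20.6% of all genes were higher in vehicle over WT and 19.9% in AC1903 over vehicle. The log2 change of ITGB3 in AC1903 over WT was 1.5 (SE 0.27, edgeR adjusted p = 0.191, DESeq2 adjusted p = 0.000722). ITGA6, which forms laminin receptors of epithelia, had 36.5 and 33.7 CPM in AC1903 libraries, 40.1 and 52.6 CPM in vehicle libraries, and 30.5 and 18.7 CPM in WT libraries. Its vehicle over WT value was 0.92 (edgeR adjusted p = 0.194, DESeq2 adjusted p = 0.0395). ITGA4, an alpha chain typical of leukocytes, had 8.57 and 17.7 CPM in AC1903 libraries, 2.26 and 2.28 CPM in vehicle libraries, and 4.99 in each WT library. Its log2 change was 2.53 in AC1903 over vehicle (edgeR adjusted p = 0.446, DESeq2 adjusted p = 0.000107). ITGA11, a collagen receptor chain of mesenchymal cells, had 2.08 and 1.12 CPM in AC1903 libraries, 0.283 and 0.733 CPM in vehicle libraries, and 0 and 0.136 CPM in WT libraries. DESeq2 called it higher in AC1903 over WT (adjusted p = 0.0422, edgeR adjusted p = 0.343), but the WT counts are too few for a fold change.

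Of the kindlin, PINCH and parvin list, 9 genes were tested, with medians of -0.29, 0.27 and 0.023 in the 3 comparisons. FERMT1, the epithelial kindlin, had 3.08 and 4.24 CPM in AC1903 libraries, 5.31 and 11.6 CPM in vehicle libraries, and 3.34 and 2.52 CPM in WT libraries, with a vehicle over WT value of 1.53 (edgeR adjusted p = 0.211, DESeq2 adjusted p = 0.0467). PARVG, the parvin of blood cells, had 2.99 and 5.92 CPM in AC1903 libraries, 0.142 and 0.407 CPM in vehicle libraries, and 1.11 and 2.36 CPM in WT libraries (AC1903 over vehicle, edgeR adjusted p = 0.518, DESeq2 adjusted p = 0.00289). FERMT3, the kindlin of blood cells, had 44.2 and 39.1 CPM in AC1903 libraries, 23.1 and 29.5 CPM in vehicle libraries, and 31.8 and 37.9 CPM in WT libraries. Its log2 change was 0.66 in AC1903 over vehicle, and neither method called it (edgeR adjusted p = 0.549, DESeq2 adjusted p = 0.274). Beside ITGA4, PARVG and FERMT3, the summed macrophage and monocyte markers stood at 405 and 949 CPM in AC1903 libraries, 250.4 and 327 CPM in vehicle libraries, and 271 and 456 CPM in WT libraries. All 17 of these markers had a positive log2 change in AC1903 over vehicle, with a median of 1.26, and CCR2 was at 0 counts in the first vehicle library. Their part in the 3 genes was not tested.

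KANK1, an adaptor that talin recruits to the rim of focal adhesions, had 123 and 134 CPM in AC1903 libraries, 136 and 112 CPM in vehicle libraries, and 219 and 199.8 CPM in WT libraries. Both AT1R Tg groups were below WT without overlap, as were 23.5% of all genes for AC1903 and 23.4% for vehicle. The log2 changes of KANK1 were -0.70 for AC1903 over WT (edgeR adjusted p = 0.309, DESeq2 adjusted p = 0.0186) and -0.75 for vehicle over WT (edgeR adjusted p = 0.178, DESeq2 adjusted p = 0.00545). TSPAN8, a tetraspanin, had 165 and 144 CPM in AC1903 libraries, 157 and 176 CPM in vehicle libraries, and 259 and 352 CPM in WT libraries. Its log2 change was -0.98 for AC1903 over WT (edgeR adjusted p = 0.254) and -0.87 for vehicle over WT (edgeR adjusted p = 0.178), and DESeq2 called both. The adaptor list of 28 tested genes had medians of -0.099, 0.05 and -0.056, and the tetraspanin list of 19 had medians of -0.28, -0.11 and -0.24.

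The 25 tested kinases and kinase partners had medians of -0.23, 0.14 and -0.015. PAK2, a p21-activated kinase, stands on 2 IDs with non-whole counts in all 6 libraries, so the value of each is uncertain. ENSRNOG00000048597 had 18.1 and 15.8 CPM in AC1903 libraries, 14.8 and 18.2 CPM in vehicle libraries, and 9.87 and 5.67 CPM in WT libraries. Its vehicle over WT value was 1.09 (edgeR adjusted p = 0.193, DESeq2 adjusted p = 0.0373). The other ID, ENSRNOG00000001747, had 24.5 and 26.6 CPM in AC1903 libraries, 21.9 and 17.7 CPM in vehicle libraries, and 29.4 and 23.1 CPM in WT libraries, with a vehicle over WT value of -0.41 (edgeR adjusted p = 0.49). The direction of PAK2 thus differed between its IDs. DDR1, a collagen receptor tyrosine kinase from the list of lateral partners, had 37.1 and 40.2 CPM in AC1903 libraries, 58.3 and 49.7 CPM in vehicle libraries, and 32.1 and 25.6 CPM in WT libraries. Vehicle libraries were the highest. Without overlap, 20.6% of all genes were higher in vehicle than in WT, and 18.4% lower with AC1903 than with vehicle. The log2 change of DDR1 was 0.91 for vehicle over WT (edgeR adjusted p = 0.165, DESeq2 adjusted p = 0.0033) and -0.48 for AC1903 over vehicle (edgeR adjusted p = 0.602).

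The 25 tested matrix ligands had medians of -0.0074, 0.039 and 0.10. Among them the laminin chains LAMB1 and LAMA1 had the smallest p in vehicle over WT. LAMB1, a chain that the mature glomerular basement membrane replaces with beta2, had 23.4 and 24.9 CPM in AC1903 libraries, 39.6 and 44.8 CPM in vehicle libraries, and 23.2 and 19.2 CPM in WT libraries. Vehicle libraries stood above both other groups, where 20.6% of all genes separated upward from WT and 18.4% were lower with AC1903 than with vehicle. The log2 change of LAMB1 was 0.99 for vehicle over WT (SE 0.18, edgeR adjusted p = 0.146, DESeq2 adjusted p = 0.00113) and -0.81 for AC1903 over vehicle (edgeR adjusted p = 0.538, DESeq2 adjusted p = 0.0629). LAMA1 had 7.15 and 10.7 CPM in AC1903 libraries, 8.63 and 13.1 CPM in vehicle libraries, and 3.70 and 3.39 CPM in WT libraries, with log2 changes of 1.34 for AC1903 over WT and 1.62 for vehicle over WT (edgeR adjusted p = 0.316 and 0.178, DESeq2 adjusted p = 0.0465 and 0.00269). The proximal tubule markers had a median log2 change of 1.34 in vehicle over WT, with 16 of 17 positive and none past the test, and their part in ITGA6, FERMT1, DDR1, LAMB1 and LAMA1 was not tested.

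Age differs within the groups. At 20.4 weeks, the 1 age that all groups share, there is 1 library per group and no test. The median log2 difference of the members was 0.05 for vehicle minus WT, -0.24 for AC1903 minus vehicle and -0.15 for AC1903 minus WT. PXN was 0.33 higher with AC1903 than with vehicle at this age, and ITGB1 0.34 lower with AC1903 than in WT. Of the CD151 IDs, which share reads, ENSRNOG00000019215 was 0.54 and ENSRNOG00000046094 0.24 lower with AC1903 than with vehicle. ITGAV was 0.43 higher with AC1903 than in WT and 0.062 higher with AC1903 than with vehicle.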

How the data were processed

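The authors deposited expected counts per Ensembl gene. RSEM 1.3.0, STAR 2.5.2b and the rat build Rnor_5.0 are named in the submitters' processing notes. The log2 fold changes and adjusted p-values in the authors' deposited tables are theirs, per the file headers, and were used for symbols and for comparison. RSEM divides reads between similar genes. Counts were rounded, filtered with filterByExpr by group (13426 genes) and scaled by TMM. Comparisons used edgeR's quasi-likelihood test (two-sided, R 4.3.3, edgeR 4.0.16) fitted to the 6 libraries together, with Benjamini-Hochberg adjustment over all genes and a threshold of 0.05. Residual degrees of freedom were 3 and the common biological coefficient of variation 23%. Intervals are 95% intervals of the fit. Log2 CPM used a prior count of 2. DESeq2 1.42.0 and limma 3.58.1 were alternatives, with other scaling, no filter, covariates and libraries left out. The script was tested on simulated data. Groups came from the sample labels. In each list the 2 genes of smallest p per direction, and any gene past the threshold of edgeR or DESeq2, could be named. Members and lists were chosen with earlier results of these data known. Of the genes that the rule on likeness names, 1 is not reported here.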

Additional observations from a re-analysis of the deposited data

How the results depend on the processing

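No member passed under any of 17 alternatives, where the lowest adjusted p was 0.235 (ITGAV, AC1903 over WT, podocyte level covariate), and 10 of 27 member log2 changes never changed sign. Genes passing edgeR numbered 10, 0 and 5 in vehicle over WT, AC1903 over vehicle and AC1903 over WT. In that order DESeq2 called 560, 67 and 181, and edgeR without a filter on low counts 774, 114 and 464. In vehicle over WT, 4 passed with those groups alone, 4 with an age covariate, 22 with a podocyte and 2 with a proximal tubule level covariate. In AC1903 over vehicle 1 passed with age. In AC1903 over WT, 8 passed with library totals, 21 with those groups alone, 22 with the podocyte and 2 with the tubule covariate. Leaving out each library gave 1 to 530, 0 to 4 and 1 to 25 genes, with 530 in vehicle over WT and 25 in AC1903 over WT both without the first vehicle library, and the lowest counts of 1 without the first WT library.

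The replicate numbers did not pair the libraries (correlations of deviations -0.0203, -0.0409 and 0.00458). With the replicate block 4, 2 and 7 genes passed and no member, and ITGA3 in AC1903 over vehicle became 0.036, as it became 0.029 with limma-voom.

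The median of the members in vehicle over WT was -0.29 with library totals, which moved the median of all genes to -0.19, 0.02 with age and 0.17 with the tubule covariate. It was -0.23 in AC1903 over vehicle with age and 0.01 in AC1903 over WT with the tubule covariate. Leaving out libraries gave medians of -0.3 to -0.048 in vehicle over WT and, in AC1903 over vehicle, -0.3 without the second vehicle library to 0.11 without the first.

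Signs turned in vehicle over WT with age for ITGA3 (0.02), VCL (0.066), PXN (0.025) and CD151 ENSRNOG00000019215 (0.12), and with the podocyte covariate for ITGA3 (0.11). With the tubule covariate they turned for ITGA3 (0.21), ITGB1 (0.045), ILK (0.19), VCL (0.17), CD151 ENSRNOG00000019215 (0.64) and ENSRNOG00000046094 (0.072). In AC1903 over WT they turned with the podocyte covariate for ITGA3 (0.059) and TLN1 (0.0014), and with the tubule covariate for ITGA3 (0.083), ILK (0.01) and CD151 ENSRNOG00000019215 (0.065). The cause was not tested.

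Leaving out 1 library turned signs in vehicle over WT for ITGA3 (-0.66 to 0.32), ITGAV (-0.23 to 0.77), VCL (-0.16 to 0.04), PXN (-0.23 to 0.042) and CD151 ENSRNOG00000019215 (-0.46 to 0.18). In AC1903 over vehicle it did so for ITGA3 (-0.46 to 0.52), ITGAV (-0.19 to 0.76), ITGB1 (-0.42 to 0.11), ILK (-0.19 to 0.046) and CD151 ENSRNOG00000046094 (-0.3 to 0.03). In AC1903 over WT it did so for ITGA3 (-0.36 to 0.11) and TLN1 (-0.19 to 0.096). A lone library was assumed to vary like the other groups. Whether greater depth would change a call was not tested.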
